A study of Mus musculus with 3 samples.

Results

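The genes described here were 223 mouse zinc finger genes whose names begin with Zfp and a number, followed by nascent RNA sequencing (Bru-seq) in the pancreatic cancer cell line NB490. They were every such gene model with a mean of at least 0.5 RPKM (reads per kilobase of gene model, scaled to the library total) over 3 libraries and a deposited length of at least 300 bp. Names starting with Zfp36, Zfp367 and Zfp369 among them, and repeated names were left out. They made up 223 of the 7915 measured genes, drawn from 22658 gene models. The genes were thus selected on their RPKM level averaged over the libraries, and the levels themselves are given as a description.

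In Bru-seq, cells take up bromouridine and the labelled RNA, made during the labelling window, is captured with an antibody and sequenced. The cells carried an inducible short hairpin RNA (shRNA) against PDX1, a transcription factor of pancreas development and of beta cells, and were selected with puromycin. All were labelled with 2 mM bromouridine for 30 min. The 3 libraries were uninduced cells, which had no doxycycline, cells that had it for 48 h, and grown-out cells, which had it for over 3 weeks. With 1 library a condition, all from 1 cell line, no test of the conditions was possible and no p-value is given. Doxycycline on cells that lack the hairpin was not analysed here, so the drug and the hairpin cannot be told apart. The labels name no uninduced culture kept for over 3 weeks. In grown-out cells, time in culture and outgrowth of some of the cells therefore cannot be told apart from doxycycline either. Intervals are 95% and cover counting error only, and a value is called higher or lower beyond counting error where the interval of its ratio leaves out no change.

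Most proteins of this group bind DNA through arrays of C2H2 fingers, in which a pair of cysteines and a pair of histidines hold a zinc ion, and each finger reads a few bases. Many also carry a KRAB domain, which recruits the corepressor TRIM28 and, through it, the histone methyltransferase SETDB1, and many KRAB zinc finger proteins silence transposable elements. The KRAB genes arose largely by tandem duplication and lie in chromosome clusters of related copies. A smaller number of Zfp-named genes encode proteins of other kinds, such as RNA-binding proteins, ubiquitin or SUMO ligases and ribosome factors.

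Sequence upstream of the annotated start is shown for 4 genes that stood at the ends of the grown-out comparison or changed direction between the conditions, 2 of them from the same chromosome 17 cluster. Each run is the 250 bases before the start from RefSeq on GRCm38.p6, 5′ to 3′ on the gene's strand, with capitals at matches on either strand to a small set of motifs. The set held TAATTA (a core bound by homeodomain proteins such as PDX1), CCGGAAG (ETS family), CCATNTT (YY1), GGGCGG (the GC box) and TGACGT (the CRE core); no pair of these matches overlaps here. Zfp945 lies at chr17:22867135-22867384 on the minus strand, Zfp948 at chr17:21566728-21566977 on the plus strand, Zfp770 at chr2:114201433-114201682 on the minus strand and Zfp566 at chr7:30090511-30090760 on the minus strand.
Zfp945: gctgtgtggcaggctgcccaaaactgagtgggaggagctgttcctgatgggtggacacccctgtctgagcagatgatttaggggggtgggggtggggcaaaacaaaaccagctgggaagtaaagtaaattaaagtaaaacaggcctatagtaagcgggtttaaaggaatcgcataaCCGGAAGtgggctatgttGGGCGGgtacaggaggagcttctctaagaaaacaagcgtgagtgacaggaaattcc
Zfp948: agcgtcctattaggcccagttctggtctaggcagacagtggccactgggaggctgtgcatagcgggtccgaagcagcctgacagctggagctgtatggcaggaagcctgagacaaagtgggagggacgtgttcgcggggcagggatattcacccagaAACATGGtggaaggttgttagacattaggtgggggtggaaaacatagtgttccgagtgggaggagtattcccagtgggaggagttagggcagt
Zfp770: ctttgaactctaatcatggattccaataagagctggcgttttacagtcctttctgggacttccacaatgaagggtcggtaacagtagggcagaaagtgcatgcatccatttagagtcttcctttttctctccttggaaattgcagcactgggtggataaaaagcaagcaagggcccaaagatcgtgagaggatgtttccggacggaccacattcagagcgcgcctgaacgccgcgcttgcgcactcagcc
Zfp566: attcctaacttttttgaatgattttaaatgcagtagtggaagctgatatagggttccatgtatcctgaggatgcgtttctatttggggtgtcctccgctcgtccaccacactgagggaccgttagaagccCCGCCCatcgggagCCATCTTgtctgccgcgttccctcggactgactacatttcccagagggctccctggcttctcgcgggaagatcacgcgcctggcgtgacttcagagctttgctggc
The Zfp945 window held CCGGAAG with its first base at position -74 and GGGCGG at -56 from the start. The Zfp948 window held CCATNTT on the opposite strand at -93. The Zfp566 window held GGGCGG on the opposite strand at -120 and CCATNTT on the gene's strand at -106, and the Zfp770 window held none of the motifs searched. A match is a description of the letters only, and no match says nothing about a factor.

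RefSeq windows were matched for 186 of the 223 genes, the first listed where a gene had several (36 genes). Their promoters were poorer in C and G than those of the other measured genes. The median GC content was 53.8% over the Zfp-named genes, against 61.2% over 5557 other measured genes and 52% over all 27025 windows. The median window held 11 CG dinucleotides in the Zfp-named genes, against 18 in the other measured genes and 6 in all windows. The GC box was present in 84 Zfp-named promoters (45.2%), against 64.1% of the other measured and 32.9% of all windows. CCATNTT was present in 29 (15.6%), against 10.5% and 12.5%. CCGGAAG was present in 33 (17.7%), against 16.4% and 7.05%, and TGACGT in 20 (10.8%), against 12.2% and 6.56%. TAATTA was present in 8 (4.30%), against 2.09% of the other measured genes and 4.90% of all windows. These shares are descriptions of the windows, not tests.

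Library totals behind the RPKM values were 51006774, 48418864 and 41632296 reads in the uninduced, 48 h and grown-out cultures. The median Zfp-named gene rested on 1183, 1111 and 872 reads in uninduced, 48 h and grown-out cells, with 78.1% to 79.4% of all reads in gene models. Of the cell type markers, 4 of 6 duct and epithelial genes (Krt8, Krt18, Krt19 and Cdh1) reached the expression minimum, and Epcam and Cldn4 lay below it. No acinar, endocrine, endothelial or fibroblast marker reached it (0 of 19 in all), and Cpa1, Ptf1a, Amy2a5, Ins1, Ins2, Gcg, Chga and Pdgfrb had 0 reads in every library. Of the immune markers, Cd68 alone reached it (1 of 4), at 0.994 RPKM at most. The summed reads were 24444, 21915 and 21234 for the duct list and 333, 275 and 169 for the endocrine list in uninduced, 48 h and grown-out cells. They were 63.0, 53 and 50 for the acinar, 250.3, 229 and 135 for the endothelial, 144, 112 and 78.0 for the fibroblast and 89.8, 83.1 and 65.4 for the immune list. These sums are raw reads, not scaled to the library totals, which also fell in this order. The part of these sums in the results below was not tested. Pdx1 itself, the hairpin's target, had 1.59, 1.05 and 1.41 RPKM in uninduced, 48 h and grown-out cells. It was 1.51-fold lower at 48 h (interval 1.28 to 1.77) and 1.12-fold lower in grown-out cells, where the interval included no change (0.961 to 1.30). These values are of newly made RNA over the whole gene model. They do not measure mature Pdx1 messenger RNA or protein, so the extent of the knockdown is not given by them.

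Zfp-named genes passed the expression minimum more often than other models, with 223 of 356 (62.6%) measured, against 7687 of 22155 other models (34.7%). The other 133 Zfp-named models fell below the minimum, 7 of them with no read in any library, and their median mean level was 0.162 RPKM. Of the measured ones, 205 reached 0.5 RPKM in each library, 18 were under it in at least 1 library, and Zfp658, Zfp747 and Zfp276 were under it in 2. Just above the minimum lay Zfp276, Zfp324 and Zfp658, with means of 0.50, 0.513 and 0.517 RPKM. Just below it lay Zfp882, Zfp219 and Zfp513, with 0.486, 0.478 and 0.473 RPKM. In the gene table for GRCm38.p6, 212 names were current symbols and 11 were older names, among them Zfp238 (now Zbtb18), Zfp295 (now Zbtb21), Zfp191 (now Zfp24) and Zfp259 (now Zpr1).

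Among measured genes, the group lay somewhat below the median level. The median level was 1.44, 1.44 and 1.38 RPKM in uninduced, 48 h and grown-out cells, where the median of all measured genes was 1.64, 1.60 and 1.64 RPKM. Only 72 of the 223 (32.3%) averaged 2 RPKM or more, against 41.6% of the other measured genes. The models were of middling length, with quartiles of 10529 and 23328 bp around a median of 15494 bp, against 8537 and 51158 bp around 22206 bp in the others. A model overlapped one on the opposite strand in 7 of the 223 (3.14%), against 12.4% of the others, and one on the same strand in 1 (Zfp84), against 3.58%. Together the group held 1.41%, 1.44% and 1.36% of gene model reads in uninduced, 48 h and grown-out cells. The 95% intervals of these shares, 1.408% to 1.415%, 1.433% to 1.440% and 1.352% to 1.360%, did not overlap.

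The 8 genes with the highest mean level were of varied kinds. Zfp207, whose product binds BUB3 and microtubules in mitosis, had 22.3, 21.5 and 22.9 RPKM in uninduced, 48 h and grown-out cells. Zfp488, known as an Olig2 partner in mouse oligodendrocytes, had 20, 20.8 and 24.2 RPKM. Zfp91, which encodes a ubiquitin ligase of the NF-κB pathway, had 17.2, 18.2 and 19.4 RPKM. Its deposited length of 3238 bp is what its coordinates in the files cover (chr19:12841429-12844666), although its stated span is 29185 bp. Zfp207, Zfp488 and Zfp91 stood well apart from the next gene in order, Zfp871, with 8.72, 8.89 and 9.26 RPKM. Zfp706, which restrains self-renewal of mouse embryonic stem cells, had 7.29, 7.63 and 8.79 RPKM. Zfp280d followed with 6.47, 6.72 and 6.12, Zfp948 with 5.94, 5.02 and 7.52, and Zfp26 with 5.57, 6.28 and 6.09 RPKM. The order of these last 3 changed between libraries. Among the 8, Zfp948 is described further on, and Zfp488 was 1.21-fold higher in grown-out than in uninduced cells (1.18 to 1.24), Zfp706 also 1.21-fold (1.15 to 1.26) and Zfp91 1.13-fold (1.07 to 1.19).

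After 48 h of doxycycline the group as a whole stood where all genes stood, and 1 gene moved far. Zfp703, a corepressor of the NET family whose human counterpart is amplified in luminal breast cancer, was 2.47-fold lower at 48 h than in uninduced cells (2.09 to 2.94). It had 2.34 RPKM in uninduced cells (interval 2.14 to 2.55), 0.946 after 48 h (interval 0.816 to 1.09) and 1.61 when grown out (interval 1.42 to 1.81), from 492, 189 and 276 reads. None of these intervals overlap, and the grown-out level lay between the others. In a whole culture, fewer transcribing cells and less RNA per cell cannot be told apart, here or below. Its model is short (chr8:28087808-28091934, plus strand, in the coordinates of the files). It was 1.46-fold lower in grown-out than in uninduced cells (1.25 to 1.69) and 1.70-fold higher in grown-out than in 48 h cells (1.41 to 2.05).

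Of the 223 genes, 1 was at least 1.5-fold lower at 48 h, against 3.27% of all measured genes, and it was also the 1 at least 2-fold lower, against 0.72%. None was at least 1.5-fold higher, against 0.379% of all measured genes, or 2-fold higher, against 0.0253%. These fold thresholds apply to RPKM plus a pseudocount of 0.05, which makes a ratio slightly smaller than the plain folds printed here. Beyond counting error, 46 (20.6%) were higher at 48 h, against 30.1% of all measured genes, and 54 (24.2%) were lower, against 30%. The interval of a ratio is wider where reads are fewer. In uninduced cells the median gene had 1183 reads in the group, against 2038 over all measured genes. The median log2 ratio of 48 h over uninduced was 0.00 for the group and 0.00 for all measured genes, and 109 of the 223 lay below 0.

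**Figure D1:**
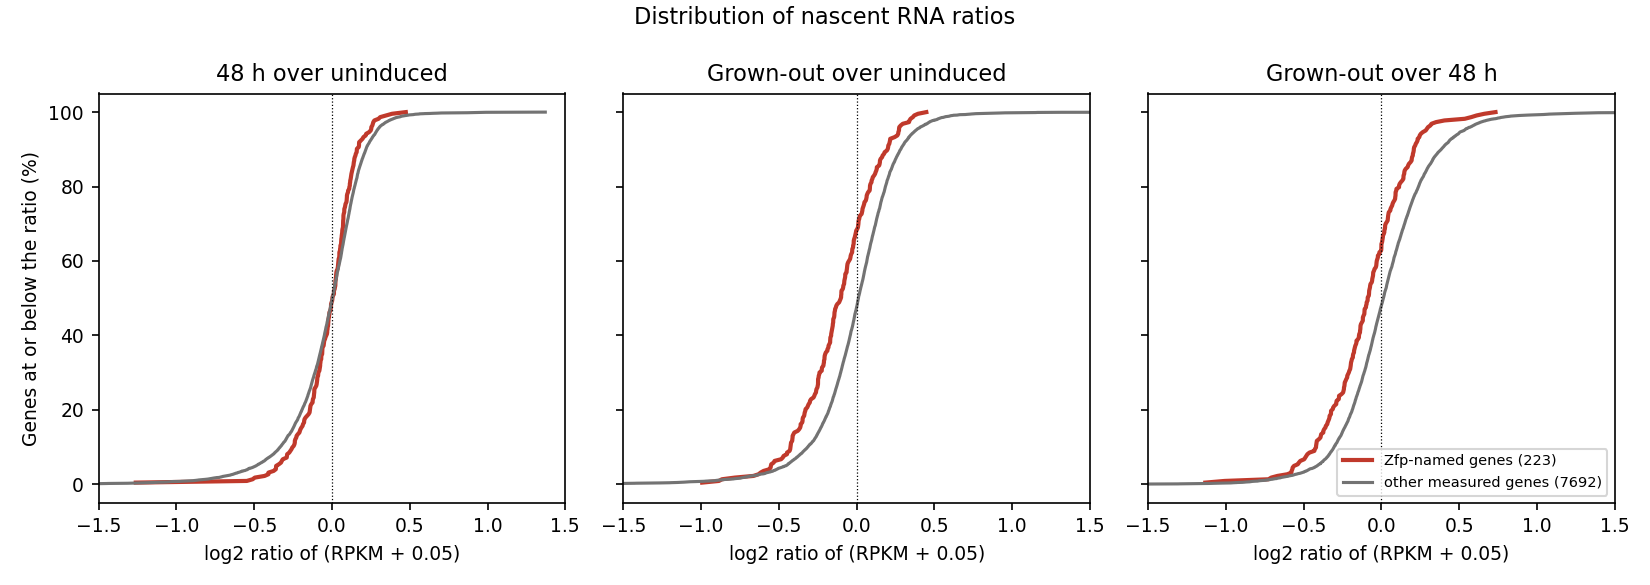
Cumulative share of genes (vertical axis, %) at or below each log2 ratio of RPKM + 0.05 (horizontal axis, drawn to 1.5 on either side of 0) for the 223 Zfp-named genes (red) and the other 7692 measured genes (grey). The curves cross near 0 at 48 h over uninduced, while in both grown-out comparisons the red curve lies left of the grey one through most of its course, with medians of -0.10 over uninduced and -0.09 over 48 h.

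Genes lower at 48 h were of several kinds. Zfp462, a large vertebrate protein that restrains enhancers of other lineages in mouse embryonic stem cells, had 0.807 RPKM in uninduced, 0.552 in 48 h and 0.380 in grown-out cells. Each library was lower than the one before in this order, and 48 h was 1.46-fold lower than uninduced (1.40 to 1.53). Its model is long, 135619 bp at chr4:54960817-55096435 on the plus strand in the files. Zfp959 had 1.96, 1.32 and 1.58 RPKM in uninduced, 48 h and grown-out cells and was 1.48-fold lower at 48 h (1.31 to 1.67). Zfp697, with 2.06, 1.54 and 1.73 RPKM, was 1.34-fold lower (1.28 to 1.40), and Zfp821, with 1.44, 1.06 and 1.18 RPKM, 1.37-fold lower (1.26 to 1.48). These 3 shared 1 shape, lowest at 48 h with the grown-out level between the others. Zfp658 was 1.45-fold lower at 48 h, with 0.672, 0.462 and 0.416 RPKM. Zfp54 was 1.35-fold lower (1.19 to 1.53) and Zfp295, now named Zbtb21, 1.31-fold lower (1.19 to 1.45).

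Genes higher at 48 h moved less. Zfp451, a SUMO ligase, had 2.84, 3.51 and 2.98 RPKM in uninduced, 48 h and grown-out cells and was 1.23-fold higher at 48 h (1.20 to 1.27). Zfp106, an RNA-binding protein needed by mouse motor neurons, had 2.22, 2.67 and 2.47 RPKM and was 1.20-fold higher. In both genes the grown-out level lay between the others. Zfp398 had 1.14, 1.51 and 1.33 RPKM and was 1.32-fold higher at 48 h (1.24 to 1.40). Zfp956 had 0.561, 0.799 and 0.535 RPKM and was 1.42-fold higher (1.23 to 1.66). Both lie in a chromosome 6 cluster of 6 genes, Zfp398 to Zfp746, in which 4 were higher and none lower at 48 h beyond counting error, with a median log2 ratio of 0.11. Over all measured genes 30.1% were higher and 30% lower. Zfp940 was 1.29-fold higher (1.12 to 1.5), Zfp169 1.20-fold and Zfp930 1.19-fold. Zfp622, a factor of large ribosomal subunit assembly, was 1.16-fold higher at 48 h (1.11 to 1.22) and 1.19-fold higher in grown-out cells (1.13 to 1.24).

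In grown-out cells the group stood lower than all measured genes against the same uninduced library. Of the 223 genes, 99 (44.4%) were lower beyond counting error, against 29.5% of all measured genes, and 42 (18.8%) were higher, against 33.6%. The median log2 ratio was -0.10, against 0.01 for all measured genes, with quartiles of -0.26 and 0.05. In all, 152 of the 223 (68.2%) lay below 0, against 48.3% of all measured genes. The shift was small for most genes: 8 were at least 1.5-fold lower (3.59%), against 2.93% of all measured genes, and none was at least 1.5-fold higher, against 1.07%. No gene was 2-fold apart on the scale with the pseudocount, where 0.708% of all measured genes were lower and 0.164% higher.

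The 8 genes at least 1.5-fold lower in grown-out cells were Zfp462, Zfp354c, Zfp945, Zfp414, Zfp422, Zfp658, Zfp57 and Zfp182. Zfp462 was 2.12-fold lower (2.02 to 2.23). Zfp354c had 0.690, 0.756 and 0.351 RPKM in uninduced, 48 h and grown-out cells, with the 48 h interval of its fold including no change (0.976 to 1.23), and was 1.97-fold lower in grown-out cells (1.69 to 2.30). Its model lies at chr11:50624587-50641233 on the minus strand in the files. Zfp945, whose promoter letters are given above, had 0.780, 0.948 and 0.405 RPKM. It was 1.22-fold higher at 48 h (1.11 to 1.34) and 1.92-fold lower in grown-out cells (1.69 to 2.19), so its highest level was at 48 h and its lowest in grown-out cells. Zfp57, the KRAB protein that keeps methylation at imprinted loci, had 2.61, 2.07 and 1.68 RPKM and was 1.26-fold lower at 48 h (1.16 to 1.37) and 1.55-fold lower in grown-out cells (1.41 to 1.70). Zfp658 was 1.61-fold lower in grown-out cells (1.37 to 1.90). Zfp182, on chromosome X with a deposited length of 5944 bp in a span of 35855 bp, had 1.57, 1.72 and 1.02 RPKM and was 1.54-fold lower (1.32 to 1.80). Zfp414 and Zfp422, named after their values were seen, were 1.83-fold lower (1.23 to 2.75, from 85, 74 and 38 reads) and 1.63-fold lower (1.31 to 2.04). With a pseudocount of 0.5 RPKM none of the 8 reached the mark. Zfp57 and Zfp462 were low in both doxycycline libraries, whereas Zfp354c, Zfp945 and Zfp182 were low in the grown-out one.

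**Figure D2:**
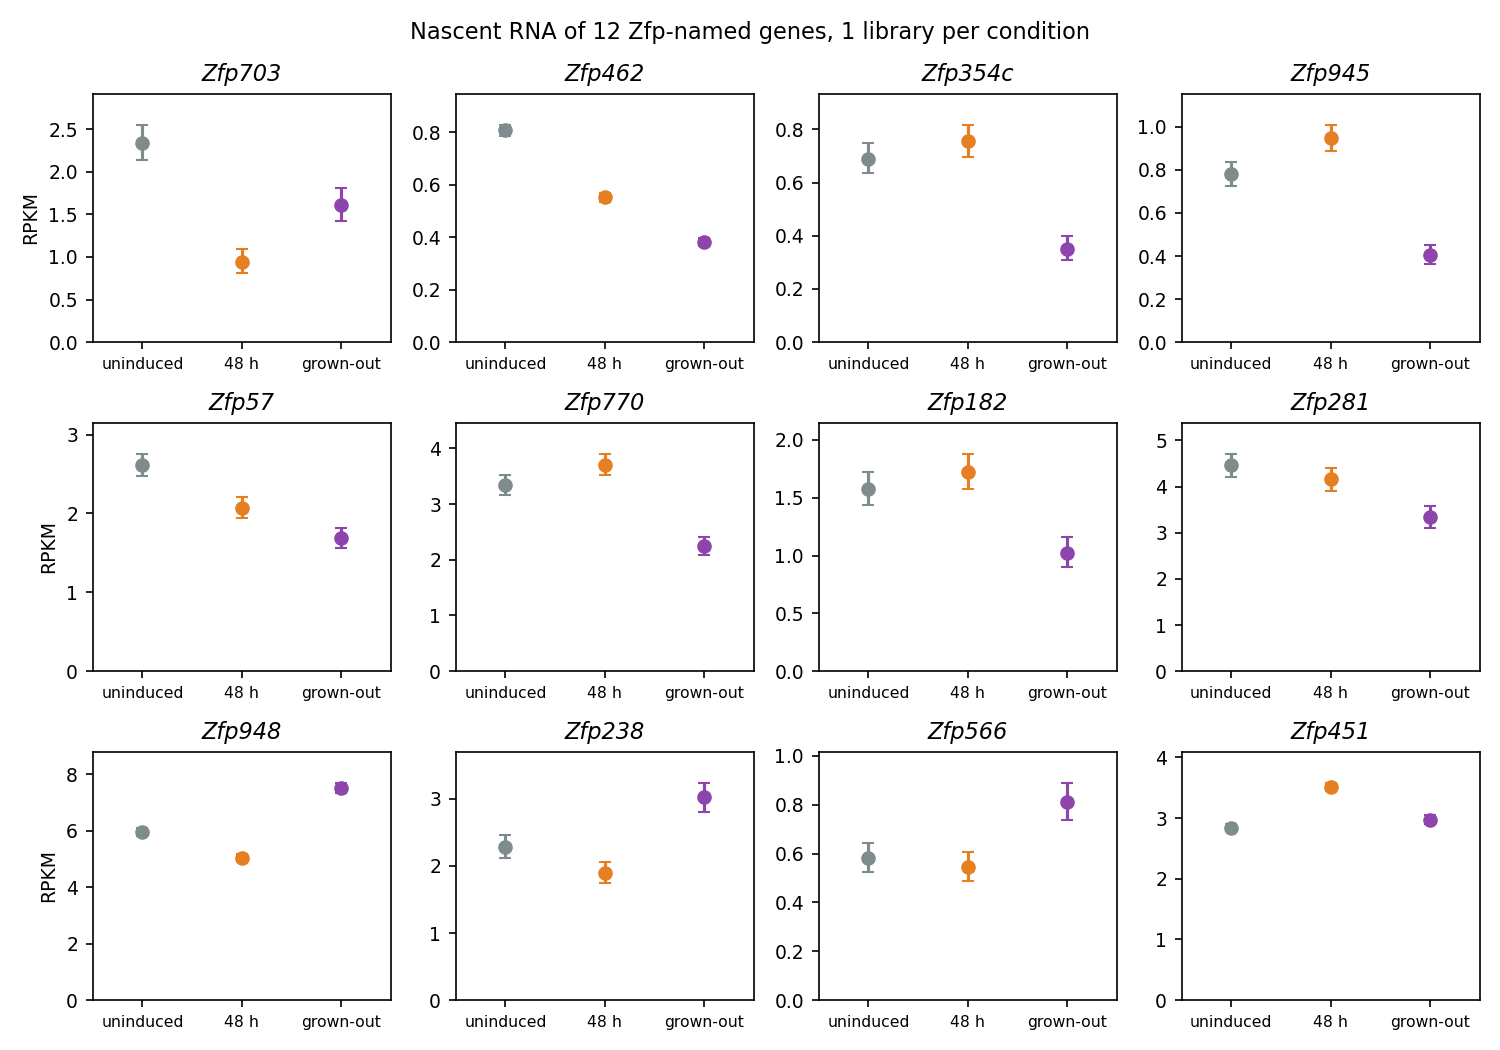
Level of 12 Zfp-named genes (RPKM, vertical axes from 0, each with its own scale) in uninduced, 48 h and grown-out cells, 1 library each. Points are the deposited values and bars exact Poisson 95% intervals, which cover counting error only; Zfp462 and Zfp57 descend over the 3 libraries, Zfp703 is lowest at 48 h, and Zfp948, Zfp238 and Zfp566 are highest in grown-out cells.

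Further genes below the 1.5-fold mark were lower in grown-out cells with tight intervals. Zfp770 had 3.35, 3.71 and 2.25 RPKM in uninduced, 48 h and grown-out cells and was 1.49-fold lower in grown-out than in uninduced cells (1.36 to 1.63). Zfp229 had 1.09, 0.927 and 0.725 RPKM and was 1.5-fold lower (1.34 to 1.68), just short of the mark once the pseudocount is added. Zfp426 had 2.64, 2.51 and 1.87 RPKM and was 1.41-fold lower (1.33 to 1.49). In Zfp770 alone of these 3 was the 48 h level above the uninduced one. Zfp281, a regulator of pluripotency and of the epithelial to mesenchymal transition, had 4.46, 4.15 and 3.33 RPKM and was 1.34-fold lower (1.22 to 1.47). Zfp445, a KRAB gene that acts with Zfp57 at imprinted loci and was named after its values were seen, had 3.38, 3.73 and 2.92 RPKM and was 1.16-fold lower (1.09 to 1.22). Zfp292 was 1.19-fold lower, with 3.96, 4.0 and 3.34 RPKM.

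The genes higher in grown-out cells exceeded the uninduced level by less than 1.5-fold. Zfp948 was 1.26-fold higher (1.22 to 1.31), and its level at 48 h was 1.18-fold lower than in uninduced cells (1.14 to 1.23). Zfp566 had 0.581, 0.544 and 0.811 RPKM in uninduced, 48 h and grown-out cells and was 1.40-fold higher in grown-out cells (1.21 to 1.60). Zfp238, now Zbtb18, a repressor needed in the developing mouse cortex, had 2.29, 1.89 and 3.02 RPKM and was 1.32-fold higher (1.19 to 1.46). In all 3 genes the 48 h level was the lowest, in Zfp566 within counting error of the uninduced level, and the grown-out level was the highest. Zfp180, with 1.24, 1.29 and 1.61 RPKM, was 1.30-fold higher (1.21 to 1.39). Zfp1, with 1.42, 1.45 and 1.82 RPKM, was 1.28-fold higher (1.20 to 1.36). Zfp592 was 1.20-fold higher, with 1.90, 2.06 and 2.29 RPKM. In these last 3 and in Zfp488 the 48 h level was the middle one and the grown-out level the highest.

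Among genes picked for a known function, the direction varied. Zfp598, the ubiquitin ligase that senses collided ribosomes, had 0.613, 0.680 and 0.807 RPKM in uninduced, 48 h and grown-out cells and was 1.32-fold higher in grown-out cells (1.14 to 1.51). Zfp318, needed for IgD expression in mouse B cells, had 0.753, 0.763 and 0.927 RPKM and was 1.23-fold higher. Zfp395 had 0.752, 0.681 and 0.918 RPKM and was 1.22-fold higher. All 3 reached their highest level in grown-out cells. Zfp568, a KRAB repressor of a placental Igf2 transcript, had 3.38, 3.41 and 3.34 RPKM. Zfp809, the KRAB protein that silences murine leukaemia virus, had 1.31, 1.25 and 1.38 RPKM. Both genes differed little between the libraries. Zfp516, an activator of the brown fat gene Ucp1, had 1.18, 1.10 and 1.01 RPKM. Zfp148 had 3.14, 3.49 and 3.38, Zfp217, a corepressor linked to CtBP, 1.62, 1.51 and 1.51, and Zfp384 3.82, 3.72 and 3.98 RPKM. Zfp326, a subunit of the DBIRD complex that joins RNA polymerase II to splicing, had 4.95, 5.14 and 5.29 RPKM, and Zfp830 2.71, 2.78 and 2.57 RPKM.

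Grown-out cells were also set against 48 h cells, a comparison that leaves out the uninduced library. The group was lower here too, with 103 genes (46.2%) lower beyond counting error, against 32% of all measured genes, and 47 (21.1%) higher, against 35.6%. The median log2 ratio was -0.09, against 0.01 for all measured genes. At least 1.5-fold lower were 6 genes (Zfp945, Zfp354c, Zfp182, Zfp770, Zfp414 and Zfp937), against 2.25% of all measured genes, and 3 were higher (Zfp703, Zfp238 and Zfp672), against 3.59%. Zfp945 was 2.34-fold lower (2.06 to 2.65) and Zfp354c 2.16-fold lower (1.85 to 2.51), the only ones past 2-fold, against 0.316% of all measured genes. Zfp770 was 1.65-fold lower (1.51 to 1.80). Zfp937, with 0.591, 0.673 and 0.425 RPKM in uninduced, 48 h and grown-out cells, was 1.58-fold lower (1.41 to 1.77). Both had their highest level at 48 h. Zfp238 was 1.60-fold higher (1.43 to 1.78), Zfp948 1.5-fold (1.44 to 1.55) and Zfp672, with 0.652, 0.514 and 0.813 RPKM, 1.58-fold (1.32 to 1.90). The 3 comparisons share libraries in pairs, so they are not independent of each other.

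Position was described through clusters of 3 or more of these genes whose models start within 500 kb of the next, which held 104 of the 223 in 18 clusters. The median log2 ratio of grown-out over uninduced was -0.14 for genes in clusters, of which 48 were lower and 14 higher beyond counting error. It was -0.07 for the 119 outside, of which 51 were lower and 28 higher. These counts, and those of single clusters in the same comparison, stand against 29.5% lower and 33.6% higher over all measured genes. At 48 h over uninduced the medians were -0.03 in clusters and 0.04 outside. For grown-out over 48 h they were -0.08 and -0.09, and the difference between the sets was not tested. The longest cluster, 17 genes from Zfp160 to Zfp40 at chr17:21145905-23330195 in the files, had a median of -0.10, with 10 genes lower and 1 higher. Its members ranged between -0.87 (Zfp945) and 0.34 (Zfp948). A second chromosome 17 cluster of 11 genes, Zfp871 to Zfp414, had a median of -0.15, with 5 lower and 2 higher. In the chromosome 7 cluster of 11 genes at chr7:30553571-30954746, Zfp84 to Zfp146, the median was -0.13 and ratios ranged between -0.38 (Zfp260) and 0.45 (Zfp566). In each of the plotted clusters, then, 1 higher gene stood among lower ones and ones within counting error.

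**Figure D3:**
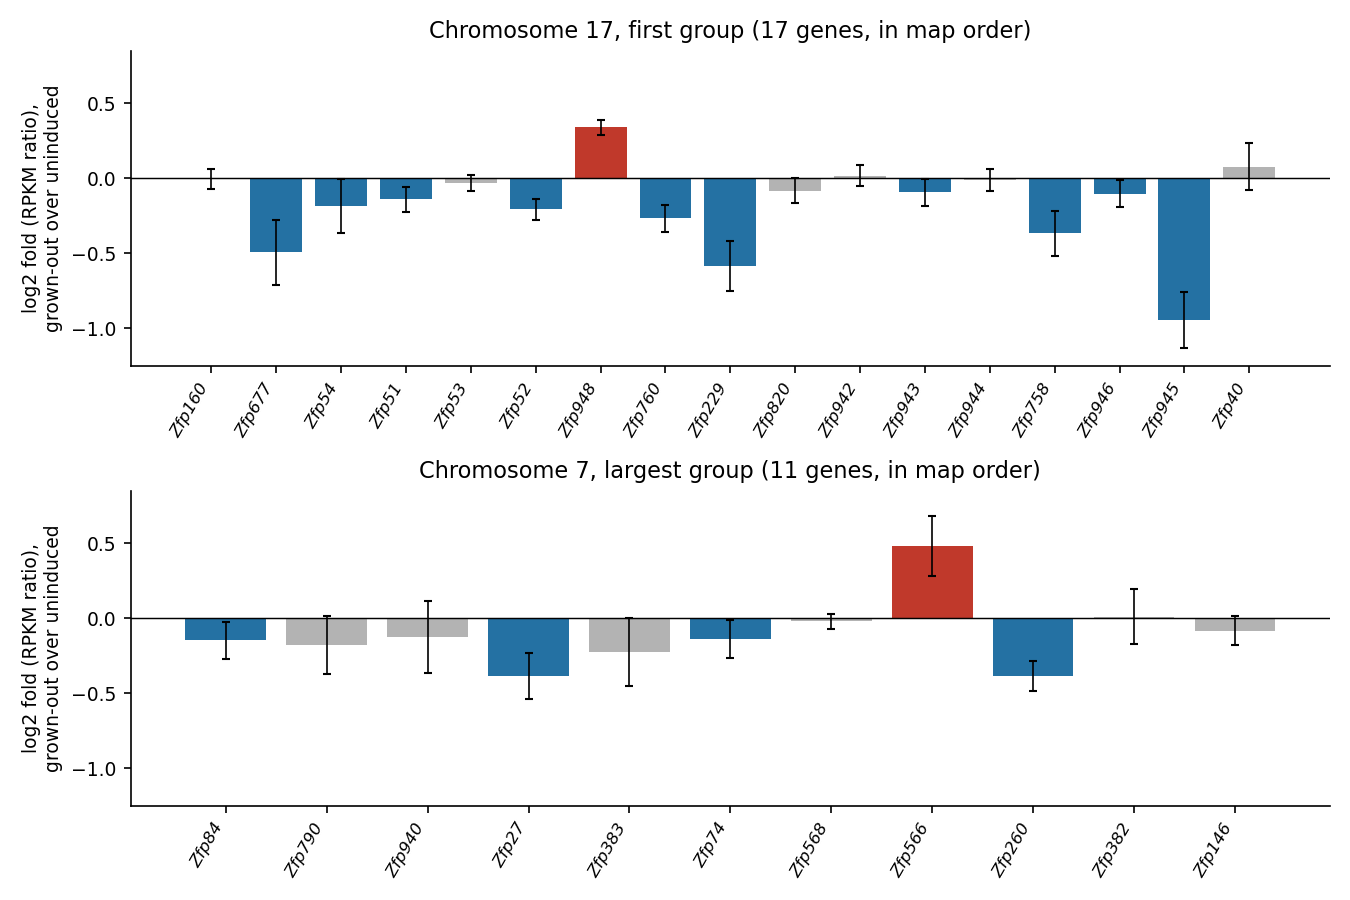
Log2 fold of RPKM in grown-out over uninduced cells (vertical axes) for each gene of 2 clusters, the longest on chromosome 17 and the chromosome 7 one of 11 genes, in map order. Bars are blue where lower beyond counting error, red where higher and grey otherwise, and error bars are the 95% counting interval; a single red bar stands in each cluster (Zfp948 and Zfp566).

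Most of the smaller clusters also had a median below 0 in grown-out over uninduced cells. The lowest were -0.41 (Zfp113 to Zfp68 on chromosome 5, 3 genes) and -0.36 (Zfp553 to Zfp646 on chromosome 7, 7 genes). On chromosome 13, Zfp187, Zfp192 and Zfp184 were all lower in grown-out cells, with a median log2 ratio of -0.18, while the 6 measured histone genes in the same span had a median of 0.64. Such neighbours differed in direction between clusters. In the chromosome 17 clusters of 17 and 11 genes, the other measured genes in the span had medians of -0.19 (4 genes) and -0.54 (2 genes). On chromosome 17, Zfp119a, Zfp959 and Zfp119b were all lower at 48 h, where 30% of all measured genes were lower beyond counting error. Their median log2 ratio over uninduced was -0.36 at 48 h and -0.21 in grown-out cells. On chromosome 9, the 5 genes Zfp560 to Zfp846 had a median of -0.21 in grown-out cells, between -0.49 (Zfp426) and 0.13 (Zfp26). The 4 genes Zfp60 to Zfp780b on chromosome 7 had a median of 0.14, with 2 higher and none lower. The other clusters with medians above 0 were Zfp787 to Zfp28 on chromosome 7 (0.12), Zfp251 to Zfp647 on chromosome 15 (0.05) and Zfp398 to Zfp746 on chromosome 6 (0.01). By whole chromosome, the 35 genes on chromosome 17 had a median of -0.14, against 0.05 for its other measured genes, and the 18 on chromosome 13 had -0.12, against 0.15. The 44 on chromosome 7 had -0.11, against -0.02. The widest downward gap was on chromosome 2, where 8 genes had -0.34, against 0.01. On 4 of the 20 chromosomes the Zfp-named median was the higher one. Chromosome 15 had 0.13 over 8 genes, against 0.06, and chromosome 1 had 0.11 over 4, against 0.04. Chromosome 14 had 0.27 over 2 genes, against 0.02, and chromosome 3 had 0.03 over 3, against -0.03.

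The grown-out shift varied with the length and the level of the genes. Its median was -0.15 for the 47 genes under 10 kb, -0.15 for the 103 of 10 to 20 kb and -0.02 for the 73 longer ones. Other measured genes in these bands had medians of -0.04, 0.01 and 0.03. In the middle band 54 Zfp-named genes were lower and 12 higher beyond counting error, and among the longest 29 were lower and 24 higher. Over all measured genes of any length 29.5% were lower and 33.6% higher. The shares of other genes in each band were not taken, so these counts are not read as an effect of length. By level, the median was -0.17 for the 75 genes under 1 RPKM, -0.10 for the 76 of 1 to 2 RPKM and -0.06 for the 72 at 2 RPKM or more, where other genes had -0.01, 0.01 and 0.03. In every band the Zfp-named median was the lower one. Over the range that holds the 5th to 95th percentiles of the group's length (4660 to 80065 bp) and of its level (0.563 to 5.40 RPKM), the 180 Zfp-named genes had a median of -0.10. The 4635 other measured genes in this range had 0.02. In it 44.4% of Zfp-named genes were lower beyond counting error, against 26.3% of the others, and 17.2% were higher, against 35.4%. At 48 h the median in this range was -0.01 for the Zfp-named genes and 0.01 for the others. Beyond counting error, 18.3% of the Zfp-named genes were then higher, against 30.4% of the others, and 23.9% lower, against 28.0%.

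**Figure D4:**
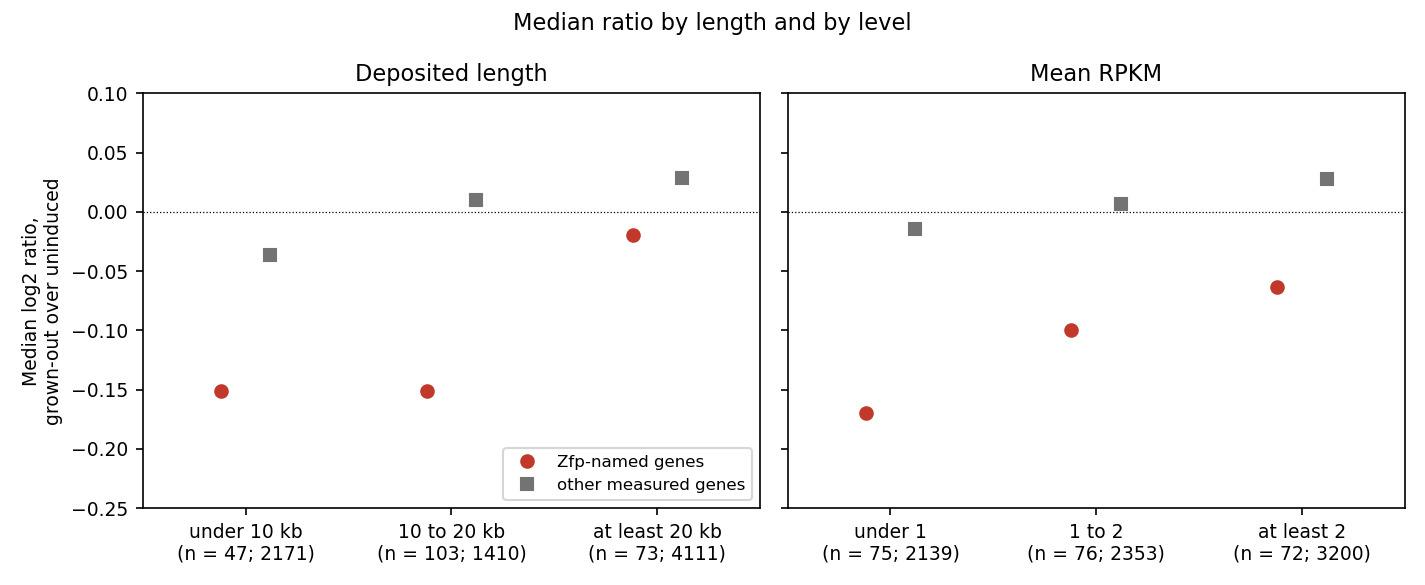
Median log2 ratio of RPKM + 0.05 in grown-out over uninduced cells (vertical axis) for Zfp-named genes (red circles) and other measured genes (grey squares), by deposited length (left) and by mean RPKM (right). The numbers under each band are Zfp-named and then other genes; the red median lies below the grey one in each of the 6 bands, and lies nearest to 0 in genes of at least 20 kb.

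Genes with other zinc finger names were held apart from the 223 genes, by the name in the files only. Some of the 223 now carry such names: Zfp238 (Zbtb18), Zfp295 (Zbtb21), Zfp161 (Zbtb14), Zfp187 (Zscan26), Zfp498 (Zscan25) and Zfp192 (Zkscan8). The 34 measured genes named Zbtb, Zscan, Zkscan or Znf had a median log2 ratio of -0.13 over uninduced, with 16 lower (47.1%) and 5 higher (14.7%) beyond counting error, against 29.5% and 33.6% of all measured genes. The families differed: of the 23 genes with Zbtb names, 7 were lower (30.4%) and 3 higher (13.0%). Most of these encode proteins that pair C2H2 fingers with a BTB domain, but Zbtb8os is among them by its name only. The 1 Znf gene was higher, with a log2 ratio of 0.28. All 5 Zscan genes and 4 of 5 Zkscan genes, which encode SCAN domain proteins with C2H2 fingers, were lower. At 48 h the 34 had a median of -0.05, with 9 lower (26.5%) and 8 higher (23.5%), against 30% and 30.1% of all measured genes. The Zfp36, Zfp36l1 and Zfp36l2 genes encode CCCH proteins that bind AU-rich elements of messenger RNAs and speed their decay, and they moved otherwise. Zfp36 had 3.00, 1.45 and 2.59 RPKM in uninduced, 48 h and grown-out cells, 2.07-fold lower at 48 h (1.73 to 2.5). Zfp36l2 had 34.7, 15.7 and 26.4 RPKM and was 2.21-fold lower at 48 h (2.12 to 2.30). Zfp36l1 had 10.8, 6.18 and 4.86 RPKM and was 2.22-fold lower in grown-out cells (2.07 to 2.39). At 48 h each of these 3 was further below its uninduced level than any of the 223 genes other than Zfp703. The rule on names also left out Zfp367 and Zfp369, whose names only begin the same way. Zfp367 was 1.33-fold lower at 48 h (1.29 to 1.38) and 1.51-fold higher in grown-out than in 48 h cells (1.46 to 1.57). Zfp369 was 1.59-fold lower in grown-out than in uninduced cells (1.43 to 1.76) and 1.67-fold lower than in 48 h cells (1.51 to 1.86).

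A list of KRAB corepressor and related chromatin genes, not all of them shown to act with KRAB proteins, had a median log2 ratio of 0.06 in grown-out over uninduced cells. Of a list of 27, 24 were measured, including Zfp809, and 12 (50%) were higher and 7 (29.2%) lower in grown-out than in uninduced cells beyond counting error, against 33.6% and 29.5% of all measured genes. At 48 h 6 were higher (25%) and 7 lower (29.2%), against 30.1% and 30% of all measured genes, with a median of -0.03. Trim28, the KRAB corepressor, had 4.02, 3.93 and 4.66 RPKM in uninduced, 48 h and grown-out cells and was 1.16-fold higher in grown-out cells (1.07 to 1.25). Setdb1 had 2.03, 1.97 and 2.38 RPKM and was 1.17-fold higher (1.12 to 1.23). Ehmt2, the histone H3 lysine methyltransferase G9a, had 1.65, 1.88 and 2.62 RPKM and was 1.59-fold higher (1.48 to 1.71), the only gene of the list past 1.5-fold there. These 3 were all highest in grown-out cells. Uhrf1 was 1.36-fold lower at 48 h than in uninduced cells (1.28 to 1.43) and 1.77-fold higher in grown-out than in 48 h cells (1.68 to 1.87). Other genes of the list were lower in grown-out than in uninduced cells, among them Trim24, a TRIM28 relative (1.22-fold), and Chd3, a remodeller of the NuRD complex (1.21-fold). The histone methyltransferase Suv39h1 (1.18-fold) and the SETDB1 partner Atf7ip (1.16-fold) were lower too.

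Motif shares were set beside the direction in grown-out cells, for the 80 lower and 37 higher genes with a promoter window. CCATNTT was present in 7 of the lower (8.75%) and in 11 of the higher (29.7%), the widest gap among the 5 motifs. The shares in lower and higher genes were 46.3% and 54.1% for GGGCGG, 15% and 16.2% for CCGGAAG, 11.3% and 10.8% for TGACGT, and 3.75% and 2.70% for TAATTA. The median GC content was 52.4% in the lower and 58.0% in the higher genes, and the median number of CG dinucleotides was 9.5 and 14. With these few windows the shares are descriptions, and no test was made.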

How the data were processed

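Bru-labelled RNA was sequenced from 3 NB490 cultures, 1 per condition. Tools named in the submitters' processing notes, without settings, were TopHat 1.4.1, Bowtie 0.12.8, bedtools 2.16.2 and CASAVA 1.8.2. Per the file headers, the estimated counts that the authors deposited cover whole gene models, introns included. A count was not whole (within 0.01 of a read) in some library for 95.5% of members and 94.3% of the other measured genes, and no source used here says how reads were split. The measure used was the authors' RPKM, scaled per the file headers by length and library total. The deposited column of reads per base, a signal per length, was not needed. Strand-specific preparation applied to certain samples, per the labels; whether counting used strand is not given in the sources used here, so members that overlap a model on the opposite strand (Zfp516 and Zfp276 among those named) are uncertain. The notes name the human build hg19 although the models are mouse, so gene models keep the coordinates of the files, whose build the sources used here do not give; promoter coordinates are RefSeq's on GRCm38.p6.

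A repeated symbol or a span over 3 Mb left a model out. The log2 ratio was taken of RPKM + 0.05. Folds are plain RPKM ratios with exact conditional binomial 95% intervals, and levels carry exact Poisson 95% intervals; without molecular identifiers both cover counting error only. A gene counted as 1.5-fold or 2-fold apart if its log2 ratio was at least that large, with an interval that left out no change. Named genes were, for 48 h and for grown-out cells over uninduced cells, the 8 higher and 8 lower members whose interval bound lay farthest from no change, 5 each for grown-out against 48 h, every member 2-fold apart, the 8 with the highest mean RPKM, the 3 on each side of the minimum, and a list of 30 known genes, of which 22 were measured. Members, lists and this rule were chosen with earlier results of these data known. Alternatives were another pseudocount, expression minimum and length minimum, edgeR 4.0.16 TMM and DESeq2 1.42.0 size factors as scaling, and leaving out overlapping models. Python 3.11.15, pandas 2.3.3, numpy 2.4.6, scipy 1.17.1 and R 4.3.3 were used.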

Additional observations from a re-analysis of the deposited data

Results flagged for a closer look

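A closer look is given to 5 genes that lay beyond counting error on opposite sides of the uninduced library at 48 h and in grown-out cells, and were at least 1.5-fold apart between those conditions. Zfp238 was 1.32-fold higher in grown-out cells and 1.21-fold lower at 48 h, and its log2 ratio of grown-out over 48 h was 0.66. Zfp672 was 1.25-fold higher in grown-out cells and 1.27-fold lower at 48 h, with a log2 ratio of 0.61. For Zfp945, 1.92-fold lower in grown-out cells and 1.22-fold higher at 48 h, the log2 ratio was -1.13. For Zfp770, 1.49-fold lower in grown-out cells and 1.11-fold higher at 48 h, it was -0.71. Zfp937 was 1.39-fold lower in grown-out cells and 1.14-fold higher at 48 h, with a log2 ratio of -0.61. Both comparisons share the uninduced library, each condition has 1 library, and the difference between the conditions was not tested.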

How the results depend on the processing

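The medians kept their direction in both grown-out comparisons under every alternative run, and for grown-out over uninduced ranged between -0.11 (TMM scaling) and -0.06 (mean RPKM of at least 2). Counts lower beyond counting error there were 110 with TMM and 109 with DESeq2 size factors, against 99. With a pseudocount of 0.5 RPKM, 0 in place of 8 genes were at least 1.5-fold lower in grown-out than in uninduced cells, and against 48 h cells 0 in place of 3 were higher and 2 in place of 6 lower. With a minimum of 2 RPKM, 72 genes remained. At 48 h, 0 in place of 1 were at least 1.5-fold lower, 24 in place of 46 higher and 19 in place of 54 lower beyond counting error. In grown-out over uninduced cells these counts were 1 in place of 8, 21 in place of 42 and 30 in place of 99, and the lower share was 41.7%, against 29.9% of measured genes at that minimum. In grown-out over 48 h cells, 1 in place of 3 were at least 1.5-fold higher, 1 in place of 6 lower, and 18 in place of 47 higher and 39 in place of 103 lower beyond counting error. With no minimum, 349 genes entered, and 1 in place of 0 was at least 1.5-fold higher at 48 h, 23 in place of 8 lower in grown-out over uninduced cells, and 5 in place of 3 higher and 23 in place of 6 lower in grown-out over 48 h cells. The lower share beyond counting error in grown-out over uninduced cells was then 39.3%, against 24.6%. Fewer or more genes entering is part of these 2 settings, and a larger pseudocount shrinks the ratios of low genes by construction. Of the values of named genes, 465 kept direction and side of the mark, 12 fell below the mark with the larger pseudocount, and 0 reversed. Restricting to genes at the minimum in the uninduced library, to current Zfp symbols, or to genes of like length and level was chosen after seeing the data. The planned split by a KRAB pattern in the protein was not run, since no protein sequences were used here. No paired analysis was possible because each condition has 1 library. Depth limits the smaller folds: the median interval reached 0.12 to 0.13 on the log2 scale to either side.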
